A study of Mus musculus with 9 samples.

Results

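The matrix metalloproteinases (MMPs), the ADAMTS proteases and their tissue inhibitors (TIMPs) were followed through the formation of the upper lip and primary palate of the mouse. Members were the protein-coding rows of the deposited table whose symbol is Mmp, Adamts or Timp followed by its number, which gave 45 of 54532 genes, namely 22 Mmp, 19 Adamts and 4 Timp genes. Mmp1a, which the table lists as a polymorphic pseudogene, was left out and had 0 counts. The tissue was the lambdoidal junction, the place where the maxillary prominence meets the medial and lateral nasal prominences, dissected from C57BL/6J embryos at E10.5, E11.5 or E12.5 (embryonic days). RNA-seq was done on 3 libraries per stage, each made from a pool of embryos, so that differences between single embryos are averaged within a library. All embryos were of the same strain, and no stage carried a mutation or a treatment.

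MMPs are zinc-dependent endopeptidases that cut collagens, gelatin, laminins and other matrix proteins, and most are made as inactive proenzymes. ADAMTS proteases are secreted relatives with thrombospondin repeats, some of which cut the large proteoglycans versican and aggrecan while others trim the N-propeptides of fibrillar procollagens. TIMPs bind the active site of MMPs, and Timp3 also inhibits several ADAMTS proteases. In facial tissue the matrix between mesenchymal cells and the basement membrane under the epithelium are remodelled as the prominences grow and fuse.

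Totals per library were 16581009–20836804 counts, of which the 45 genes took 0.0527–0.164%. Markers of facial mesenchyme and of epithelium were detected in every library, 6 of 6 for each list. E10.5 replicate 3 stood apart from the other E10.5 libraries. The SD of the log2 difference was 0.476 to each of them against 0.196 between them, and its facial mesenchyme markers summed to 911.8 CPM (read counts scaled to library size) against 1465 and 1429 CPM, while its epithelial markers summed to 675 CPM against 371.6 and 424.4 CPM. It was the lowest of the 3 E10.5 libraries in 26 of the 32 members tested, against 44.3% of all genes tested. Its endothelial markers summed to 109.9 CPM against 310 and 303.6 CPM. Its log2 difference from the mean of the other E10.5 libraries also went with the GC content of the genes (Spearman correlation -0.59). The same correlation was 0.49 and 0.52 for replicates 1 and 2. Each of these was set against a mean that holds replicate 3, so the 3 values are not independent. The part of GC content in the low member values of E10.5 replicate 3 was not tested. E12.5 replicate 3 was the lowest of its stage in 25 of 32, against 38.9% of all genes. In whole tissue, fewer cells of a type and less RNA per cell cannot be told apart. Nothing in the labels says that a pool is a separate litter, so the p-values measure the spread between these libraries, which may in part be technical.

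Of the 45 members, 34 had more than 3 counts in at least 1 library, and 11 were at 3 counts or fewer in every library. These 11 were Mmp1b, Mmp3, Mmp7, Mmp8, Mmp10, Mmp12, Mmp13, Mmp20, Mmp21, Mmp27 and Adamts13. The collagenases Mmp1b, Mmp8 and Mmp13, the stromelysins Mmp3 and Mmp10, the matrilysin Mmp7, the macrophage elastase Mmp12 and the tooth enamel protease Mmp20 are among them, as is Adamts13, which cleaves von Willebrand factor. Mmp1b, Mmp7, Mmp10, Mmp12 and Mmp27 had 0 counts throughout. Of the 11, 9 lie side by side on chromosome 9, between 7272514 and 7699585 (427072 bases, GRCm38), and this block gave 10 counts in all over the 9 libraries and at most 2 in any library.

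The promoters of the detected and the undetected members differed in how often they held 3 short motifs, with exceptions in both sets, and sequences are shown for a few genes of each set. This comparison was chosen after the levels were seen. The promoters of other genes were not split by level, so whether the difference is particular to these members was not tested. RefSeq promoters (GRCm38.p6, 250 bases before to 50 bases after the start) were found for 31 of the 45 members, and 14, Mmp2 and Mmp9 among them, had no entry. An AP-1 motif, TGAGTCA or its reverse complement TGACTCA, was found in 6 of the 11 undetected members (Mmp1b, Mmp3, Mmp7, Mmp10, Mmp12 and Mmp13), in 0 of the 20 detected members with a promoter, and in 5.2% of all 32851 promoters. All 6 lie in the chromosome 9 block. TATAAA on the gene's strand was found in 8 of the 11 undetected members, in 1 of the 20 detected members (Adamts1) and in 8.32% of all promoters. Of these 8, all but Mmp21 lie in the same block, so these neighbouring genes are not independent cases. A GC box, GGGCGG or CCGCCC, was found in 1 of the 11 undetected members (Adamts13), in 17 of the 20 detected members and in 35.66% of all promoters. The median GC content was 42.7% (37.7–54.7%, 13 promoters) in the undetected and 66.0% (53.3–80.0%, 21 promoters) in the detected members. A member was counted if any of its promoters held the motif, while the shares of all promoters are per promoter. A match is a string of letters and not a binding site, and binding was not measured.

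The windows of 60 bases around the AP-1 motif are given for 5 of these 6 genes, 5′ to 3′ on the gene's strand, with the motif in capitals. They lie at chr9:7272453-7272512 (plus strand) for Mmp13, chr9:7388086-7388145 (minus strand) for Mmp1b, chr9:7445750-7445809 (plus) for Mmp3, chr9:7502253-7502312 (plus) for Mmp10 and chr9:7692001-7692060 (plus) for Mmp7. The window of Mmp12 is not printed because it lies inside the gene span of the table. The motif begins 35 bases before the RefSeq start in Mmp13, 46 in Mmp3, 63 in Mmp10 and Mmp7, and 93 in Mmp1b.
Mmp13: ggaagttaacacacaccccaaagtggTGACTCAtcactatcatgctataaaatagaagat
Mmp1b: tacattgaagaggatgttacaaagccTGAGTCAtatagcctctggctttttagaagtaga
Mmp3: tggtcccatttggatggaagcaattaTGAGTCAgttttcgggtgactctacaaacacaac
Mmp10: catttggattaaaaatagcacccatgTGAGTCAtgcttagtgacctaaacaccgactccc
Mmp7: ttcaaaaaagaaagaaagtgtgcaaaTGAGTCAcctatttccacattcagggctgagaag
In Mmp13 the letters TATAAA follow the motif within the window.

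The 250 bases before the start are given for 2 detected membrane-type MMPs with GC boxes, Mmp14 at chr14:54431348-54431597 (plus strand) and Mmp24 at chr2:155775092-155775341 (plus strand), with each GC box in capitals. Mmp14 was chosen as the most abundant membrane-type member and Mmp24 as the DEG that fell in E12.5 vs. E10.5.
Mmp14: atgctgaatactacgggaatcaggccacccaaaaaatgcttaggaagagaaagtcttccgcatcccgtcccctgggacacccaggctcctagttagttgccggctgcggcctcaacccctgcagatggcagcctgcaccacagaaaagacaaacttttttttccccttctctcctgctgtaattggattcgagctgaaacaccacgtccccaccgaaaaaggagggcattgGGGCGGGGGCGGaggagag
Mmp24: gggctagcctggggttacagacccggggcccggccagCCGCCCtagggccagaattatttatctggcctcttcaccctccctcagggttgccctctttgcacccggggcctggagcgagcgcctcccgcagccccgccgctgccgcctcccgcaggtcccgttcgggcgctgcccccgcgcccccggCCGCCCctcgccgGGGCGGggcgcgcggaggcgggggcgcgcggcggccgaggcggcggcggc

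Among the 34 detected members, expression was concentrated in a few genes. On the scale of CPM per kb of gene length, the only scale on which genes were compared with each other, Mmp2 led at each stage, with 35.0 ± 14.99 (SD, n = 3 libraries) at E10.5, then 70.4 ± 2.65 at E11.5 and 80.0 ± 4.52 at E12.5. Timp2 followed with 25.5 ± 4.22, 44.8 ± 3.21 and 54.0 ± 7.84, then Mmp14 with 21.4 ± 3.65, 33.9 ± 1.83 and 49.5 ± 4.88, and then Mmp11 with 9.80 ± 1.72 at E10.5 and 32.9 ± 1.96 at E12.5. At E10.5 Mmp15 stood above Mmp11, with 12.1 ± 3.31. These are the gelatinase Mmp2, its membrane-bound activator Mmp14 and Timp2, the inhibitor that bridges proMmp2 to Mmp14 on the cell surface. At E12.5 the libraries of Mmp2 (75.7–84.7) lay above those of Timp2 (45.8–61.5), which overlapped those of Mmp14 (44.2–53.8). At E10.5 the libraries of all 3 overlapped. At E12.5 the ADAMTS genes ran from 0.227 ± 0.136 in Adamts8 to 10.2 ± 2.14 in Adamts10, and the lowest detected gene was Mmp24 at 0.0523 ± 0.0277.

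**Figure D1:**
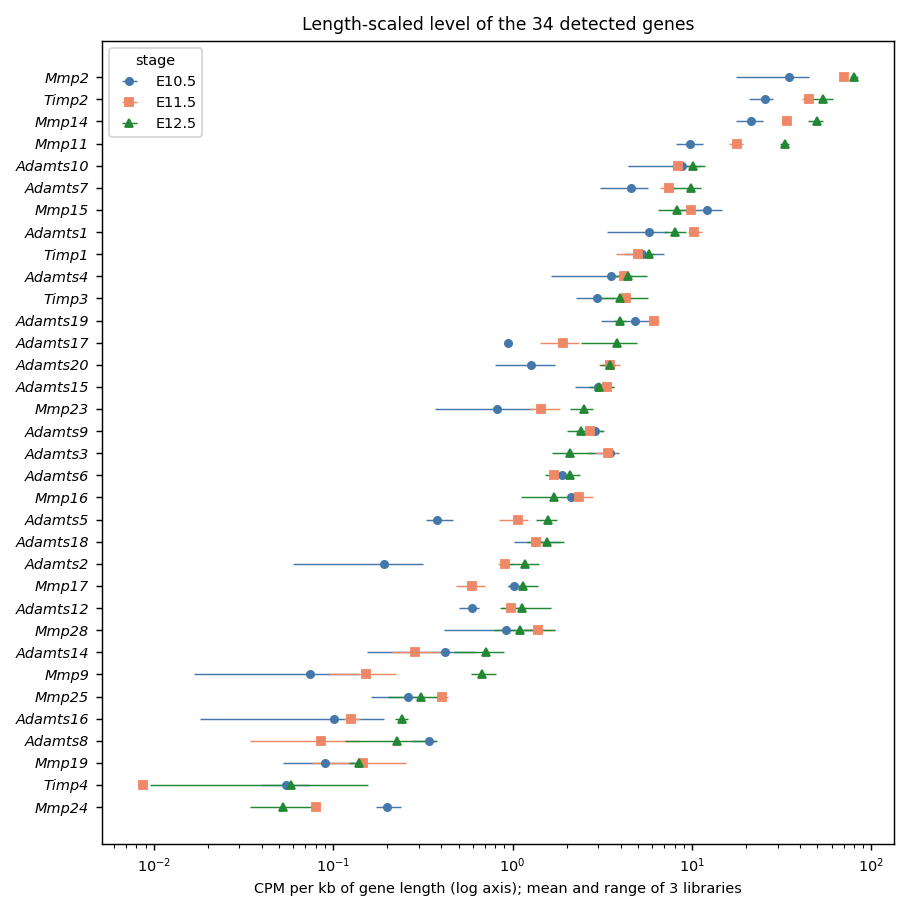
CPM per kb of gene length on a log axis for the 34 detected members, ordered by their level at E12.5; each marker is the mean of 3 libraries at 1 stage and each line their lowest to highest value. Mmp2, Timp2, Mmp14 and Mmp11 stand at the top, and Mmp24 and Timp4 at the bottom.

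Summed over the family on the same per-length scale, the MMPs reached 56.28–101.2 CPM per kb at E10.5, then 131.4–143.3 at E11.5 and 163.7–190.2 at E12.5. The stages did not overlap. Mmp2, Mmp14 and Mmp11 together made up 77.4–80.5% of that sum at E10.5, then 87.7–88.7% at E11.5 and 90.3–92.0% at E12.5. The ADAMTS sum was 29.58–52.87, 54.7–61.82 and 48.25–69.76 CPM per kb, so E11.5 lay above E10.5 and within the range of E12.5. The TIMP sum was 27.19–39.16, 50.45–55.99 and 54.99–72.42 CPM per kb, and Timp2 alone made up 72.5–85.5% of it. The ratio of the MMP sum to the TIMP sum was 2.07–2.68 at E10.5, then 2.53–2.61 at E11.5 and 2.63–2.98 at E12.5, with E12.5 above E11.5 and E10.5 overlapping both. The ratio is of RNA per length and not of protein or activity. These sums are dominated by a few genes and were not tested.

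**Figure D2:**
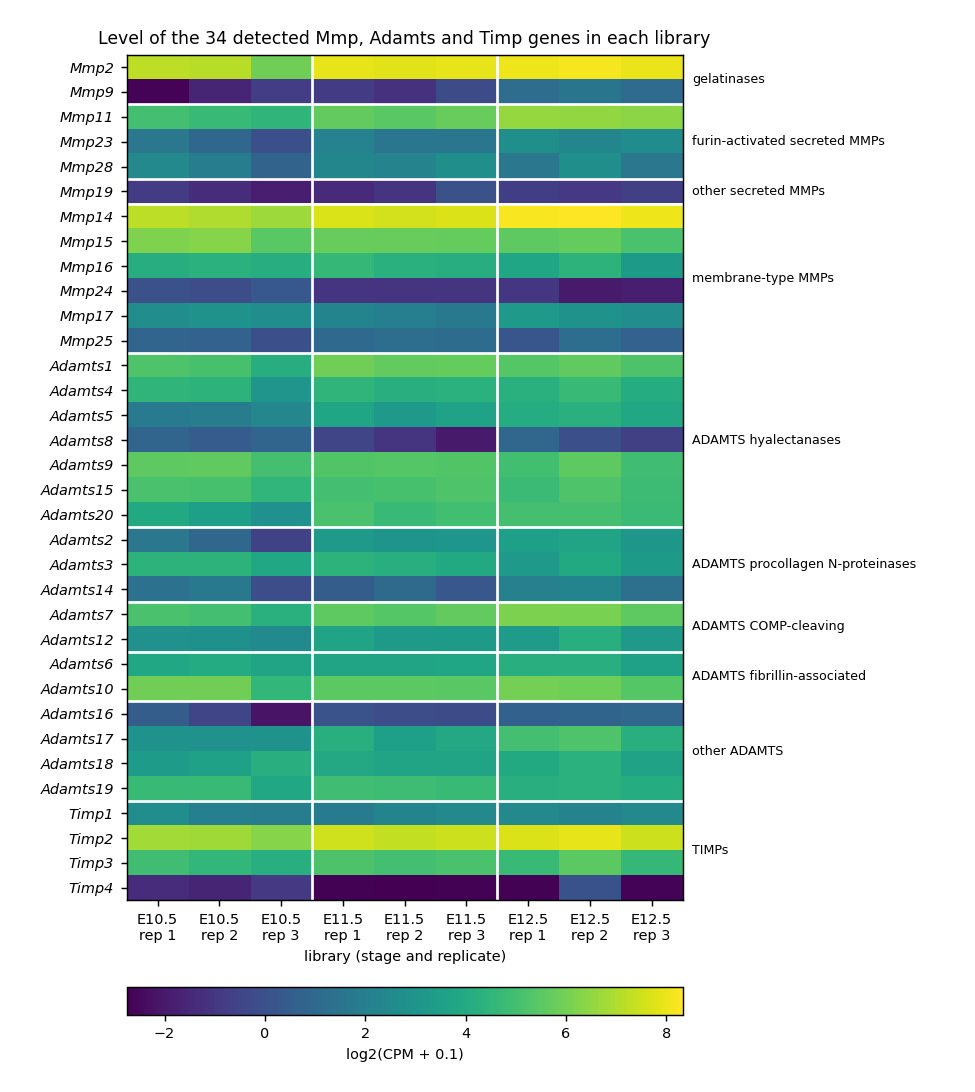
log2(CPM + 0.1) of the 34 detected members (rows, by role) in each of the 9 libraries (columns, by stage); colours are to be compared along a row, since the values are not scaled by gene length. The E10.5 replicate 3 column is darker than its neighbours in Mmp2, Adamts2 and Adamts20, and the Timp4 row is bright in E12.5 replicate 2 alone among the later libraries.

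To ask which members changed between stages, each pair of stages was tested across all genes, and a gene counted as a differentially expressed gene (DEG) if its adjusted p was no higher than 0.05 and its log2 fold change reached 1 in either direction. The 3 pairs share libraries, so their results are not independent of each other. In E11.5 vs. E10.5, 5 of 31 members tested were DEGs (16.1%), against 6.07% of all 15708 genes tested: Adamts2, Adamts5, Adamts17 and Adamts20 rose and Adamts8 fell, beside 3.46% of all genes upregulated and 2.61% downregulated. In E12.5 vs. E11.5, 3 of 31 were DEGs (9.68%), against 5.10% of 15808 genes: Mmp9, Adamts14 and Adamts17 rose, beside 4.14% of all genes upregulated and 0.962% downregulated. In E12.5 vs. E10.5, 12 of 32 were DEGs (37.5%), against 15% of all genes tested (2392 of 15899), and 11 of these rose while Mmp24 fell. The upregulated share over all genes in that comparison was 9.97% and the downregulated share 5.08%. In all, 14 members were DEGs in at least 1 comparison, and 18 of those tested were in none. The matching share over all genes was not taken, so this count is not read as a result about the members. The median log2 fold change of the members was 0.36, 0.21 and 0.37 in the 3 comparisons, beside -0.03, 0.02 and -0.01 over all genes tested. Markers of other kinds moved over the same days. The 6 facial mesenchyme markers summed to 911.8–1465 CPM at E10.5, then 2115–2263 at E11.5 and 2225–2481 at E12.5, with 3 up and 1 down of 6 over both days, while the 6 osteoblast markers summed to 26.65–29.36, then 62.95–100.6 and 157.1–184.3 CPM, with 3 up and 1 down of 5 tested. Their part in the changes of the members was not tested. The filter on low counts removed the undetected members and Mmp19 and Timp4, so these counts do not describe all 45.

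The counts in the single intervals were less stable than that across both days. Leaving out 1 library gave 1–5 DEGs in E11.5 vs. E10.5, lowest (1) without E11.5 replicate 1 or 3, where the share over all genes fell to 2.44% and 2.80%, with 2 without E10.5 replicate 2 and 3 without E11.5 replicate 2. It gave 1–4 in E12.5 vs. E11.5, lowest (1) without E11.5 replicate 3 or E12.5 replicate 1. It gave 9–12 in E12.5 vs. E10.5, with 9 without E10.5 replicate 3. For the other fits the share over all genes is not given, so whether these counts followed it is not shown. The libraries of the stages did not overlap in 16 of 31, 14 of 31 and 14 of 32 members, against 36.7%, 35.3% and 42.4% of all genes tested.

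The gelatinases Mmp2 and Mmp9 both rose from E10.5 to E12.5. Mmp2 (gelatinase A, ENSMUSG00000031740, chr8:92827291-92853420) had 151.4, 142.4 and 59.71 CPM in E10.5 replicates 1 to 3, 240.0, 227.4 and 244.6 CPM at E11.5, and 267.8, 285.5 and 255.2 CPM at E12.5. All E11.5 libraries lay above all E10.5 libraries and below all E12.5 libraries, and E10.5 replicate 3 was far below the rest. The E12.5 vs. E10.5 log2 fold change was 1.203 ± 0.29 (SE; adjusted p = 0.013), a 2.30-fold difference. Without E10.5 replicate 3, whose mesenchymal markers were low, it was 0.89, under the fold threshold but still with an adjusted p below 0.05; the part of those markers in the result was not tested. In E11.5 vs. E10.5 the log2 fold change of Mmp2 was 1.01 ± 0.30 with an adjusted p of 0.0671. There it passed both thresholds under some alternatives and not under others, as given at the end.

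Mmp9 (gelatinase B, ENSMUSG00000017737, chr2:164940780-164955850) showed the largest fold change among the members, from a level near the limit of detection. It had 0.0594, 0.232 and 0.496 CPM at E10.5 (1, 4 and 8 counts), 0.484, 0.337 and 0.790 CPM at E11.5 (9, 7 and 15 counts), and 2.20, 2.86 and 2.09 CPM at E12.5 (39, 53 and 35 counts). The E12.5 libraries lay above all others, and those of E10.5 and E11.5 overlapped. It was 4.41-fold higher in E12.5 vs. E11.5 (log2 2.14 ± 0.37, adjusted p = 0.00458) and 8.99-fold higher in E12.5 vs. E10.5 (log2 3.17 ± 0.55, adjusted p = 0.00193), and it was a DEG in both under all alternatives run. E11.5 vs. E10.5 was not tested because its counts were too low.
Mmp9 is made by several cell types, among them macrophages, neutrophils and osteoclasts. The summed level of the 8 macrophage markers was 27.62–36.96 CPM at E10.5, then 34.76–40.73 at E11.5 and 46.85–49.38 at E12.5, all 8 being detected. Of these, 2 of 8 were up in E12.5 vs. E10.5. The 6 neutrophil markers summed to 0.681–2.62, 2.32–2.89 and 2.62–10.3 CPM, with 2 of 3 tested up in E12.5 vs. E11.5 and over both days. The 6 osteoclast markers summed to 7.99–15.81, 18.86–24.21 and 14.93–20.87 CPM, with Dcstamp and Atp6v0d2 at 3 counts or fewer in every library. Of the 2 tested, Ctsk rose in E11.5 vs. E10.5 and Acp5 fell in E12.5 vs. E11.5. Over all genes tested, 3.46%, 4.14% and 9.97% were upregulated in the first interval, the second and over both days, and 0.962% were downregulated in the second. The part of these cells in the rise of Mmp9 was not tested.

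The membrane-type MMPs are anchored at the cell surface, and of the 6 members 1 rose, 1 fell and 4 were not DEGs in E12.5 vs. E10.5, where 9.97% of all genes rose and 5.08% fell. Mmp14 (MT1-MMP, ENSMUSG00000000957, chr14:54431612-54445364) had 149.2, 127.7 and 105.6 CPM at E10.5, 205.6, 189.9 and 210.8 CPM at E11.5, and 300.9, 320.7 and 263.5 CPM at E12.5. The 3 stages did not overlap. Its 2 intervals were of similar size, log2 0.67 ± 0.14 (adjusted p = 0.0191) and 0.54 ± 0.12 (adjusted p = 0.0173), each under the fold threshold, and in E12.5 vs. E10.5 it rose 2.33-fold (log2 1.22 ± 0.19, adjusted p = 9.45e-04). This call held under every alternative run.
Mmp24 (MT5-MMP, best known from the nervous system, ENSMUSG00000027612, chr2:155775342-155818366) had 0.891, 0.813 and 1.12 CPM at E10.5, 0.377, 0.385 and 0.369 CPM at E11.5, and 0.394, 0.162 and 0.179 CPM at E12.5. The E10.5 libraries lay above all later ones. The E12.5 vs. E10.5 log2 fold change was -1.90 ± 0.52 (adjusted p = 0.0221). The call was lost by adjusted p (at most 0.0898) without E10.5 replicate 1 or 2 or E12.5 replicate 2 or 3, where the log2 fold change was -1.998 to -1.67, and with DESeq2 (log2 -1.945, adjusted p = 0.0627). The 6 forebrain and eye markers also fell, from 161.9–252.8 CPM at E10.5 to 58.92–65.74 and 50.95–63.11 CPM. The 6 neuron markers went the other way, with 143–169.1 CPM at E10.5, then 164.3–187.1 and 260.3–288.5 CPM. The part of either list in the change of Mmp24 was not tested. In addition, 13.6% of its exon bases are shared with BC029722 on the other strand, and whether reads were counted by strand is not given in the sources used here.

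The furin-activated MMPs are switched on inside the secretory pathway. Mmp11 (stromelysin-3, ENSMUSG00000000901, chr10:75923222-75936496) had 32.09, 27.00 and 22.55 CPM at E10.5, 51.01, 44.96 and 53.41 CPM at E11.5, and 96.30, 92.03 and 85.52 CPM at E12.5. The stages did not overlap, and the spread within a stage was small beside the differences between stages. Mmp11 was 1.83-fold higher in each interval (log2 0.88 ± 0.15, adjusted p = 0.0102, and 0.87 ± 0.12, adjusted p = 0.00127) and 3.37-fold higher over both (log2 1.76 ± 0.19, adjusted p = 7.61e-05), the lowest adjusted p-value among the members. Chchd10 on the other strand shares 5.6% of its exon bases.
Mmp23 (ENSMUSG00000029061, chr4:155650655-155653384), which is held in membranes by an N-terminal anchor until it is cleaved, had 3.03, 1.86 and 0.867 CPM at E10.5, 4.30, 2.89 and 2.95 CPM at E11.5, and 6.59, 4.91 and 6.08 CPM at E12.5. E12.5 lay above both earlier stages, which overlapped. It rose 3.06-fold from E10.5 to E12.5 (log2 1.61 ± 0.39, adjusted p = 0.0128), a call lost without E12.5 replicate 1 (log2 1.52) or replicate 3 (log2 1.58), with adjusted p-values of at most 0.0582. Mmp28, the third tested gene of this role, was not a DEG in any comparison.

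**Figure D3:**
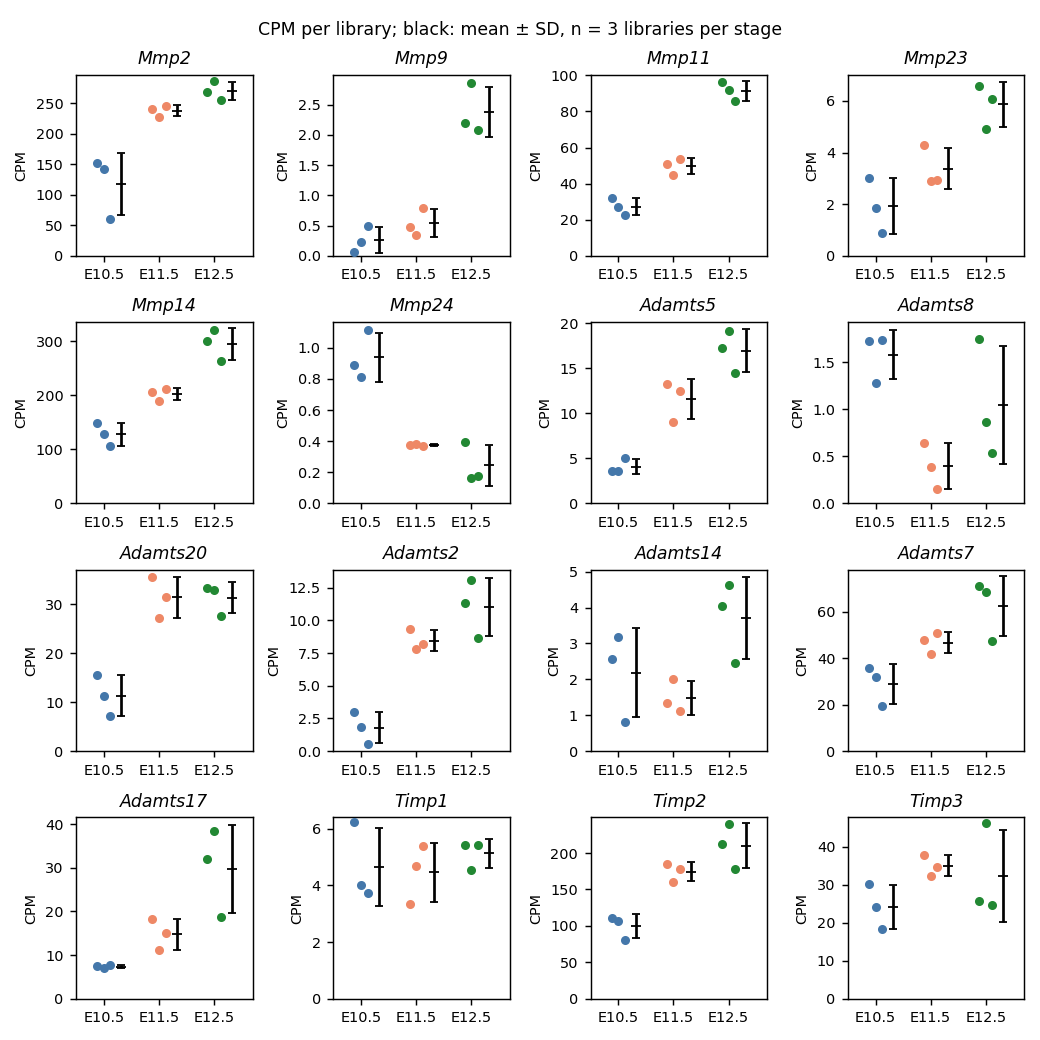
CPM in each library for the 14 members that were DEGs in at least 1 comparison and for Timp1 and Timp3; dots are libraries in replicate order and black bars the mean ± SD of 3 libraries. Mmp11 and Mmp14 climb at each stage without overlap, Adamts20 is level from E11.5 on, and Mmp9 is high at E12.5 only.

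The ADAMTS proteases that cut large proteoglycans (Adamts1, 4, 5, 8, 9, 15 and 20) held 2 members that rose and 5 that were not DEGs in E12.5 vs. E10.5, beside 9.97% of all genes upregulated. Adamts5, the chief aggrecanase of mouse cartilage (ENSMUSG00000022894, chr16:85856173-85901828), had 3.57, 3.66 and 5.02 CPM at E10.5, 13.24, 9.04 and 12.43 CPM at E11.5, and 17.30, 19.14 and 14.49 CPM at E12.5. The stages did not overlap, and unlike in most members E10.5 replicate 3 was the highest of its stage. Adamts5 rose 2.84-fold in E11.5 vs. E10.5 (log2 1.51 ± 0.23, adjusted p = 0.0064) and 4.18-fold over both days (log2 2.06 ± 0.24, adjusted p = 1.64e-04), and both calls held under every alternative run.
Adamts20, a versican-cleaving protease known from the spread of melanoblasts and from palate closure in the mouse (ENSMUSG00000022449, chr15:94270163-94465418), had 15.51, 11.32 and 7.19 CPM at E10.5, 35.57, 27.17 and 31.55 CPM at E11.5, and 33.41, 33.00 and 27.67 CPM at E12.5. The later stages overlapped each other and lay above E10.5. It rose 2.78-fold in E11.5 vs. E10.5 (log2 1.47 ± 0.26, adjusted p = 0.0111), a call lost without E11.5 replicate 1 (log2 1.38) or replicate 3 (log2 1.48) by adjusted p-values of at most 0.0703, and in E12.5 vs. E11.5 the log2 fold change was -0.01 ± 0.14. Over both days it rose 2.78-fold (log2 1.48 ± 0.26, adjusted p = 0.00243) under every alternative run.
Adamts8 (ENSMUSG00000031994, chr9:30942562-30963838), an aggrecan-cleaving protease, had 1.72, 1.28 and 1.73 CPM at E10.5, 0.646, 0.385 and 0.158 CPM at E11.5, and 1.75, 0.863 and 0.537 CPM at E12.5. E11.5 lay below E10.5, and E12.5 overlapped both. It fell in E11.5 vs. E10.5 (log2 -1.98 ± 0.47, adjusted p = 0.0319), a call that held only when E10.5 replicate 3 was the library left out and was lost without each of the other 5 in turn (log2 -2.49 to -1.60, adjusted p up to 0.119). The antisense gene Gm29724 shares 10.6% of its exon bases.

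Of the procollagen N-proteinases, which remove the N-propeptides of fibrillar collagens, Adamts2 was a DEG in the first interval and over both days, Adamts14 in the second interval, and Adamts3 in none; that the 2 intervals differed was not shown for either gene. Adamts2 (ENSMUSG00000036545, chr11:50602084-50807573), whose loss in people causes a form of Ehlers-Danlos syndrome, had 2.97, 1.86 and 0.557 CPM at E10.5, 9.36, 7.79 and 8.22 CPM at E11.5, and 11.33, 13.05 and 8.647 CPM at E12.5. Every later library lay above every E10.5 library, and E11.5 and E12.5 overlapped. It rose 4.69-fold in E11.5 vs. E10.5 (log2 2.23 ± 0.44, adjusted p = 0.0176), which was lost without E10.5 replicate 2 or any 1 of the E11.5 libraries (log2 2.16 to 2.29, adjusted p up to 0.0938), and 6.13-fold over both days (log2 2.62 ± 0.44, adjusted p = 0.00176), which held in all fits run.
Adamts14 (ENSMUSG00000059901, chr10:61197112-61273438) had 2.56, 3.19 and 0.805 CPM at E10.5, 1.35, 2.02 and 1.11 CPM at E11.5, and 4.06, 4.64 and 2.45 CPM at E12.5. E12.5 lay above E11.5 while E10.5 overlapped both. It rose 2.47-fold in E12.5 vs. E11.5 (log2 1.30 ± 0.33, adjusted p = 0.0262), and was no DEG without E11.5 replicate 1 (log2 1.22), E11.5 replicate 3 (log2 1.11) or E12.5 replicate 1 (log2 1.24), with adjusted p-values up to 0.112, or in 1 fit on all 9 libraries (log2 1.31, adjusted p = 0.0937).

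Adamts7 and Adamts12, which cleave cartilage oligomeric matrix protein, pointed the same way, and 1 of them was a DEG. Adamts7 (ENSMUSG00000032363, chr9:90163069-90208071) had 35.54, 31.93 and 19.26 CPM at E10.5, 47.67, 41.74 and 50.62 CPM at E11.5, and 70.77, 68.58 and 47.53 CPM at E12.5. Later libraries lay above those of E10.5, with E12.5 replicate 3 inside the E11.5 range. It rose 2.17-fold in E12.5 vs. E10.5 (log2 1.12 ± 0.25, adjusted p = 0.00858), and without E10.5 replicate 3 the log2 fold change was 0.90, under the fold threshold. Adamts12 had a log2 fold change of 0.94 (adjusted p = 0.0359), also under it.
The fibrillin-associated Adamts6 and Adamts10 were not DEGs in any comparison, and Adamts10 was the ADAMTS gene with the highest E12.5 mean per kb. Among the other 4 ADAMTS genes (Adamts16, 17, 18 and 19), Adamts17, whose human counterpart is mutated in a form of Weill-Marchesani syndrome (ENSMUSG00000058145, chr7:66839735-67153171), was the single DEG.
Adamts17 had 7.43, 7.03 and 7.62 CPM at E10.5, 18.19, 11.11 and 15.01 CPM at E11.5, and 32.12, 38.50 and 18.73 CPM at E12.5. The stages did not overlap, E10.5 being the tightest and E12.5 the most spread. It rose 4.07-fold over both days (log2 2.02 ± 0.27, adjusted p = 3.59e-04), a call that held in every fit run. Each interval lay at the fold threshold, with log2 1.01 ± 0.20 (adjusted p = 0.0186) and 1.01 ± 0.25 (adjusted p = 0.0271). The first call was lost without E10.5 replicate 2 (log2 0.97) or E11.5 replicate 1 (0.83) or 3 (1.00), and the second without E11.5 replicate 2 (0.82) or 3 (1.00) or E12.5 replicate 1 (0.96) or 2 (0.77). The first was also lost under the replicate block (log2 0.98), and the second under 5 of the 6 other alternatives, namely DESeq2, its size factors, no low-count filter, the replicate block and the GC correction (log2 0.96 to 0.99, under the fold threshold).

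The TIMPs differed among themselves, with Timp2 a DEG and Timp1 and Timp3 not. Timp2 (ENSMUSG00000017466, chr11:118301069-118355740) had 110.6, 107.3 and 80.58 CPM at E10.5, 184.9, 160.6 and 177.9 CPM at E11.5, and 212.5, 239.5 and 178.5 CPM at E12.5. E10.5 lay below the later stages, which overlapped. It rose 2.13-fold in E12.5 vs. E10.5 (log2 1.09 ± 0.19, adjusted p = 0.00232) and fell under the fold threshold without E10.5 replicate 3 (log2 0.96) or E12.5 replicate 2 (log2 0.98). In E11.5 vs. E10.5 its log2 fold change was 0.81 ± 0.14 (adjusted p = 0.0100), under the fold threshold.
Timp1 (ENSMUSG00000001131, chrX:20870166-20874735) had 6.24, 4.01 and 3.72 CPM at E10.5, 3.34, 4.67 and 5.37 CPM at E11.5, and 5.41, 4.53 and 5.43 CPM at E12.5. The stages overlapped throughout, with log2 fold changes of -0.06 to 0.19. Timp3 (ENSMUSG00000020044, chr10:86300372-86349506), the inhibitor bound to the matrix, had 30.13, 24.09 and 18.33 CPM at E10.5, 37.88, 32.41 and 34.82 CPM at E11.5, and 25.81, 46.37 and 24.75 CPM at E12.5. E12.5 replicate 2 was the highest of all 9 libraries and the other E12.5 libraries lay within the E10.5 range. Timp3 shares 21.3% of its exon bases with Syn3, within whose gene it lies.
Timp4 (ENSMUSG00000030317, chr6:115241892-115252205) had 5, 4 and 7 counts at E10.5, 1 in each E11.5 library, and 1, 17 and 1 at E12.5. It was not tested, and a single library, E12.5 replicate 2, held most of its E12.5 counts.

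The 18 members tested but never called had log2 fold changes of -0.77 to 0.84 (E11.5 vs. E10.5), -0.71 to 0.94 (E12.5 vs. E11.5) and -0.73 to 1.26 (E12.5 vs. E10.5). With no fold threshold, 8 of 31, 8 of 31 and 13 of 32 members had an adjusted p of at most 0.05, against 11.8%, 12.2% and 24.6% of all genes tested. In the first interval this adds Mmp11, Mmp14 and Timp2, and in the second Mmp11, Mmp14, Mmp17, Mmp23 and Adamts19. Mmp17, a membrane-type MMP held by a lipid anchor, had a log2 fold change of 0.94 (adjusted p = 0.0181) and Adamts19 of -0.65 (adjusted p = 0.0105) in E12.5 vs. E11.5. Both were singled out after their values were seen.

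Whether the second interval differed from the first was tested directly as the difference of the 2 log2 fold changes, in 1 model of all 9 libraries. At an adjusted p of at most 0.05, 0 of 32 members were called by edgeR, against 1.18% of all 16375 genes, and 8 members had an unadjusted p below 0.05. DESeq2 called 2 of 40 members (1.56% of all genes), and edgeR with no low-count filter 5 of 40 (2.32%). Of 32 members, edgeR called 2 without E10.5 replicate 3 (2.59% of all genes) and 1 without E10.5 replicate 1 (1.33%). The lowest adjusted p among the members was that of Mmp17 (0.0626, log2 difference 1.72). For Adamts20 the difference was -1.47 ± 0.39 (adjusted p = 0.10), for Adamts2 -1.84 ± 0.61 (adjusted p = 0.218), for Adamts8 3.38 ± 0.97 (adjusted p = 0.140) and for Mmp11 0.00 ± 0.27. A gene that was a DEG in 1 interval alone is therefore not shown to have moved differently in the other.

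**Figure D4:**
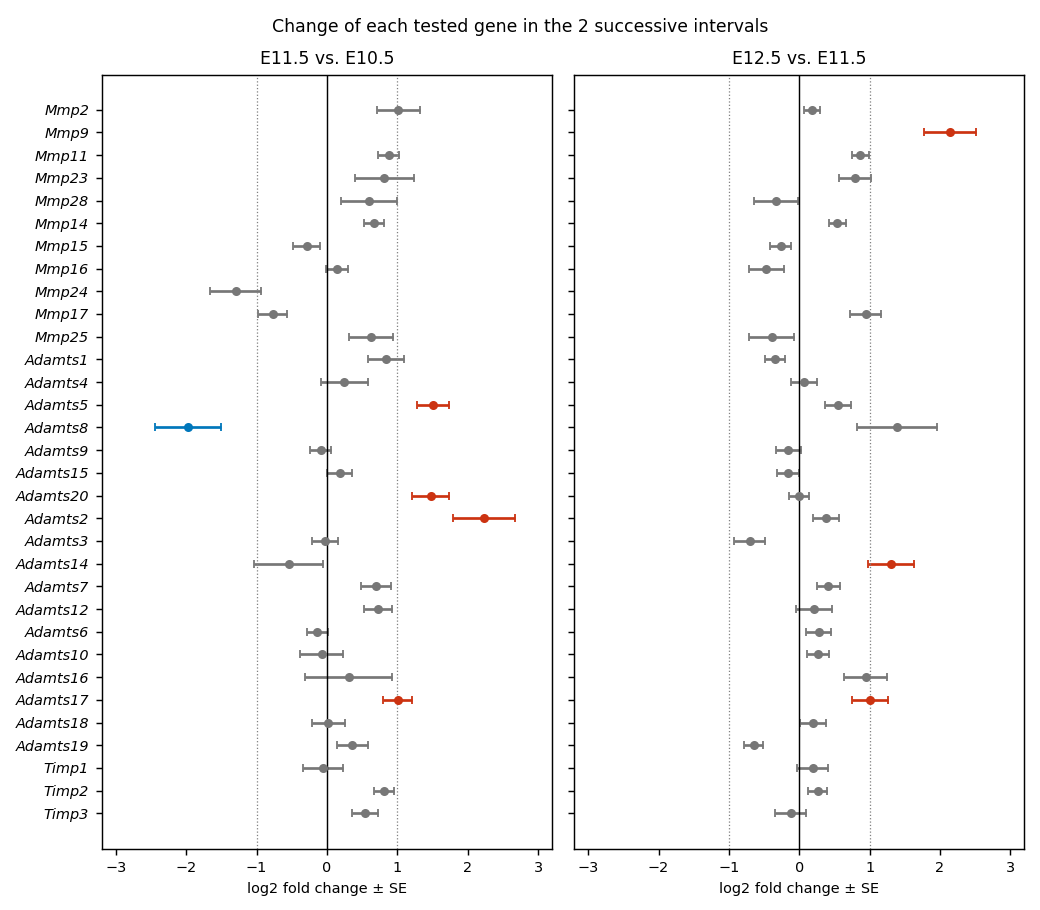
log2 fold change ± SE of each tested member in E11.5 vs. E10.5 (left) and E12.5 vs. E11.5 (right); red marks upregulated and blue downregulated DEGs, and dotted lines the fold threshold. Of the upregulated DEGs, Adamts2, Adamts5 and Adamts20 lie past the threshold on the left alone, Mmp9 and Adamts14 on the right alone, and Adamts17 on both sides. Adamts8 is a downregulated DEG on the left (-1.98) and lies past the upper line on the right (1.39), where it was not a DEG. Mmp2 and Mmp24 lie past a line on the left without being DEGs. Mmp9 was not tested on the left and Mmp24 not on the right.

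The genes around these proteases were read from 6 lists of relatives, regulators and substrates. ADAMTS-like proteins and papilin, which share the non-catalytic domains, had 1 of 6, 3 of 7 and 2 of 7 tested members upregulated in the first interval, the second interval and over both days, and none downregulated. Over all genes tested the upregulated shares in that order were 3.46%, 4.14% and 9.97% and the downregulated shares 2.61%, 0.962% and 5.08%, which are the background for each of the 6 lists. Adamtsl1 had 1.80 ± 0.620, 8.41 ± 2.62 and 23.6 ± 7.10 CPM (SD, n = 3) and rose in both intervals (log2 2.22 ± 0.34, adjusted p = 0.00678, and 1.49 ± 0.26, adjusted p = 0.00504). Regulators and activators had 3 up and 1 down of 16, then 1 up, then 3 up and 1 down. Thbs2, a matricellular protein through which Mmp2 is cleared from the cell surface, went from 1.77 ± 0.525 to 6.39 ± 1.71 and 21.7 ± 1.73 CPM and rose in both intervals (log2 1.85 ± 0.30, adjusted p = 0.00796, and 1.76 ± 0.19, adjusted p = 3.02e-04). Reck, a membrane-anchored MMP inhibitor, had 60.2 ± 18.4, 79.4 ± 0.520 and 68.2 ± 11.97 CPM and was not a DEG.

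Procollagen C-proteinases and enhancers had 1 of 4 up, 0 and 1 of 4 up. Tll1, a tolloid-like C-proteinase, had 1.86 ± 0.856, 10.5 ± 2.97 and 13.5 ± 4.90 CPM and rose 5.65-fold in E11.5 vs. E10.5 (log2 2.497 ± 0.38, adjusted p = 0.00626). The enhancer Pcolce had 58.8 ± 22.1, 81.7 ± 6.20 and 86.4 ± 9.60 CPM and was not a DEG. The ADAM genes listed, some of which are membrane-bound sheddases, had 0 of 9, 0 of 10 and 1 of 10 up. The last was Adam33 with 0.333 ± 0.291, 0.853 ± 0.475 and 2.36 ± 1.29 CPM (log2 2.80 ± 0.71, adjusted p = 0.0153) and 0 counts in E10.5 replicate 3.
Proteoglycan substrates, listed together with the link proteins Hapln1 and Hapln3, had 1 up and 2 down of 5, then 2 up, then 1 up and 2 down. The 2 that fell in the first interval were Ncan and Hapln1. The aggrecan gene Acan went from 0.180 ± 0.0610 through 0.738 ± 0.187 to 10.5 ± 2.91 CPM and rose in both intervals (log2 2.001 ± 0.48, adjusted p = 0.0329, and 3.82 ± 0.29, adjusted p = 4.44e-05). The first of these rests on few counts, namely 4, 2 and 3 at E10.5 against 11, 14 and 18 at E11.5. The versican gene Vcan had 591 ± 18.99, 872 ± 99.0 and 830 ± 229 CPM, with a log2 fold change of 0.56 ± 0.11 in E11.5 vs. E10.5 (adjusted p = 0.0179), under the fold threshold. Matrix substrates had 1 of 5 up, 0 and 1 of 5 up, namely Fbn1, the fibrillin-1 gene, with 61.9 ± 21.2, 131 ± 12.5 and 133 ± 54.9 CPM and a 2.12-fold rise in E11.5 vs. E10.5 (log2 1.08 ± 0.24, adjusted p = 0.0264).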

How the data were processed

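RNA was sequenced from 9 pooled lambdoidal junction samples, 3 per stage, grouped by the stage in the labels. The authors, after a FASTQC check, aligned the reads to mm10 (GRCm38) using HISAT2 (2.0.5 in the submitters' processing notes) and deposited whole-number counts per gene from featureCounts, without normalization. Strand and multi-mapping settings were not given in the sources used here. The deposited FPKM values, the authors' normalized mean signal per stage and their log2 fold changes and p-values from DESeq2, a set for each pair of stages, were not used. Coordinates are those of the table and were compared with GENCODE vM21.

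For each pair of stages a model of the 6 libraries concerned was fitted in R 4.3.3 with edgeR 4.0.16 (filterByExpr, TMM, quasi-likelihood test), with Benjamini-Hochberg adjustment over all genes tested; every adjusted p printed is from this test unless another is named. SE was obtained as the size of the log2 fold change over the root of the F statistic. CPM uses TMM-scaled sizes of all 9 libraries. Sequences and plots were handled with Python 3.11.15 with pandas 2.3.3 and matplotlib 3.10.9. The fitting code was tested on simulated counts. Alternatives were DESeq2 1.42.0 and its size factors, no low-count filter, no fold threshold, a replicate block, 1 fit on all libraries, leaving out each library and, added after the data were seen, a GC correction (lowess span 0.3). Reads carried no molecular identifiers, so counting limits cover counting error only.

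Values in every library are given for each member called in at least 1 comparison, for Mmp2 and Mmp9 and for the TIMPs. Stage means are given for the called gene with the smallest p in each related list and for Reck, Vcan and Pcolce. The members, the related lists and the marker lists were chosen with earlier results of these data known.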

Additional observations from a re-analysis of the deposited data

How the results depend on the processing

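The members called in E12.5 vs. E10.5 numbered 11–13 under the other alternatives and 9–12 with 1 library left out, around 12. In E11.5 vs. E10.5 the count of 5 became 8 with no fold threshold and 1–5 with 1 library left out, and was 5–6 under the other alternatives. In E12.5 vs. E11.5 the count of 3 became 8 with no fold threshold and 1–4 with 1 library left out, and was 2 under the others. For the difference of the intervals the count of 0 became 2 with DESeq2, 5 with no low-count filter and 0–2 with 1 library left out. Leaving out the fold threshold can only add calls, by construction. Leaving out the filter brings more genes into the test, which by itself need not add calls. Apart from the effect of the fold threshold, the cause of these shifts was not tested. No fold change of a called or named member changed its sign where it was called.

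With a replicate block the counts were 5, 2, 12 and 0. For the pairs of stages, shares over all genes are not given for the block, the GC correction or most fits above. Whether the member counts followed those shares is therefore not shown. Same-numbered libraries deviated from their stage means with correlations of -0.29 to 0.27. Libraries with different numbers were not compared, so this cannot decide whether the same number marks more than a label. A call lost under the block is therefore not read either way. The GC correction left 6, 2, 12 and 0. Mmp2 in E11.5 vs. E10.5 passed both thresholds under 5 alternatives (DESeq2, no filter, the block, all 9 libraries together and the GC correction; adjusted p 0.00191–0.0494). Mmp9, Mmp24, Adamts8 and Timp4 rest on few counts per library, which limits their precision.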
